A study of Mus musculus with 3 samples.

Results

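The Hox genes and their TALE cofactors Meis and Pbx were examined in mouse astrocytes derived from embryonic stem cells. Members were all genes whose array symbol is Hoxa, Hoxb, Hoxc or Hoxd with a number, or a Meis or Pbx gene, on probe sets annotated to 1 gene only. These were 39 genes of 18194 on the array, namely 33 Hox genes and 6 TALE cofactor genes, read by 63 probe sets.

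The series holds 3 arrays of 1 group, labelled wild type. Embryonic stem cells passed through embryoid bodies for 4 days and a selection medium for neural precursors for 5 to 7 days, and were expanded with EGF2 and FGF2. At 18 passages after embryoid body formation the precursors lost these growth factors and received 5% fetal bovine serum for 5 days. No untreated or precursor sample forms a second group, so each gene could be set only against background and against the spread of the 3 arrays. The labels name no separate cultures, so the p-values reflect nothing but the spread among these samples, and that may be technical.

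Hox genes encode homeodomain transcription factors and sit in 4 clusters, here on chromosomes 6, 11, 15 and 2. Their order along a cluster follows the order in which they are switched on from the head end to the tail end of the embryo, and in the nervous system their expression marks positions in the hindbrain and spinal cord, while the forebrain and midbrain lack it. Pbx and Meis proteins carry a homeodomain of the TALE class, bind DNA together with Hox proteins and sharpen their choice of sites. Unlike Hox genes, they are also expressed in the forebrain and midbrain, where they act without Hox partners.

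Levels are the log2 of the deposited intensity, mean ± SD over 3 arrays. A gene took the value of its brightest probe set, and single genes are not ranked by level, since brightness varies from probe set to probe set. As background limit each array was given the 95th percentile of 78 genes for receptors of odours, pheromones, trace amines and tastes, which was 3.99, 4.10 and 4.07 log2 units on replicates 1, 2 and 3. A gene was called above background when its log2 level minus the limit of the same array was on average above 0, with an adjusted p below 0.05 (limma, one-sample, one-sided, Benjamini-Hochberg over 18116 genes). The limit entered as a fixed value, so the adjusted p does not cover its uncertainty or binding of other transcripts to a probe set. By its definition some receptor genes lie above the limit, so a call just above it does not establish expression. The arrays are bulk measurements, so fewer cells with a transcript and less of it in each cell cannot be told apart. Of 8 astrocyte markers 8 were above background, where all genes tested gave 58.3%. Among them were Gfap, Aqp4 and S100b at 12.63 ± 0.12, 11.87 ± 0.10 and 9.57 ± 0.19. With the median over each gene's probe sets this count was 6, and without probe sets that may match several transcripts it was 7.

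Of the 33 Hox genes, 4 were above background, while all 6 TALE cofactor genes were. Over all genes tested the share was 58.3%, against 12.1% of the Hox genes. The median Hox gene lay 1.32 log2 units below the limit (margin -1.32), the median TALE cofactor 3.18 above it, and the median of all genes tested 1.76 above it, as a description over many probe sets. The Hox genes above background were Hoxa3, Hoxa4 and Hoxa5, which are consecutive in the Hoxa cluster, and Hoxd8. Of the other 29, 24 lay below the limit on every array, 1 was above it on 1 array, 4 on 2 arrays and 0 on all 3.

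**Figure D1:**
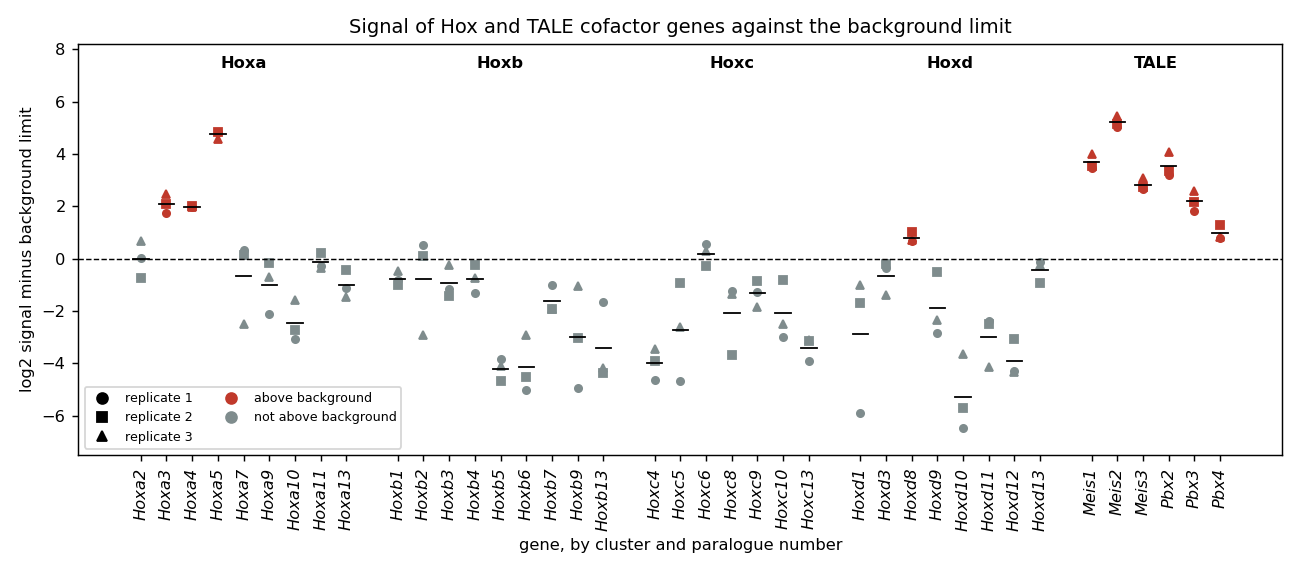
Log2 signal minus the background limit of the same array (vertical axis) for 33 Hox genes by cluster and paralogue number and for 6 TALE cofactors; symbols are the 3 arrays, short lines the means, the dashed line the limit. Points of Hoxa3, Hoxa4, Hoxa5, Hoxd8 and all 6 TALE cofactors lie above the line on every array, and the other 29 Hox genes lie around or below it.

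Hoxa5, whose product patterns the neck and brachial region of the spinal cord and the lung (Entrez gene 15402), read 8.83, 8.93 and 8.66 on replicates 1, 2 and 3. Its mean of 8.81 ± 0.14 lay 4.76 log2 units above the limit (adjusted p = 4.25e-05, limma). Its second probe set, whose probes may also match further transcripts, read 6.70, 7.22 and 6.98 and was also above background. Without such probe sets the call rested on the brighter one alone, with the margin still 4.76.

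Hoxa4, the next gene toward the head-end side of the cluster (Entrez gene 15401), read 5.95, 6.11 and 6.05, close together on all arrays. The mean of 6.04 ± 0.077 lay 1.98 log2 units above the limit (adjusted p = 0.000210, limma). Its other probe set, whose probes may also match further transcripts, read 0.85, 3.33 and 3.16 and was below the limit on every array. With the median over its probe sets, Hoxa4 lay 0.21 above the limit and was not called (adjusted p = 0.496, limma).

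Hoxa3, which shapes the lower hindbrain and the organs of the neck (Entrez gene 15400), read 5.73, 6.18 and 6.56, lowest on replicate 1. Its mean of 6.16 ± 0.41 lay 2.10 log2 units above the limit (adjusted p = 0.000828, limma). Of its 4 probe sets 2 were above background. The brighter, which gave these values, may match several transcripts, and without such probe sets Hoxa3 took the other, at 5.08, 5.09 and 5.54, and lay 1.19 above the limit. The remaining probe sets were below the limit on every array, at 3.64 ± 0.15 and 1.90 ± 1.70, and with the median of the 4 the margin was 0.41 and Hoxa3 was not called (adjusted p = 0.0609, limma). In the RefSeq gene table the gene model of Hoxa3 overlaps those of Hoxa4, Hoxa5 and Hoxa6 on the same strand. Which part of the model each probe set reads was not examined.

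The nearest measured genes on either side of these gave no call. Hoxa6, which lies between Hoxa5 and Hoxa7, was not analysed here, so where the called genes end on that side is not known. Hoxa2, the most anterior Hox gene of the hindbrain, read 4.02, 3.36 and 4.74, above the limit on 2 of 3 arrays (adjusted p = 0.813, limma). Hoxa7, of the thoracic region, read 4.32, 4.25 and 1.58, so that replicate 3 stood well below the others. Hoxa9, Hoxa10, Hoxa11 and Hoxa13, which pattern the caudal trunk and limbs, had means of 3.05, 1.59, 3.91 and 3.04, all below the limit. Of these only Hoxa11 exceeded the limit on any array, on replicate 2 at 4.30. In the Hoxa cluster 3 of 9 measured genes were thus above background.

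The sequences before the starts of called genes and of the nearest measured genes without a call in the Hoxa cluster are shown, together with that of Hoxd8. Each is the 250 bases before the start in the RefSeq promoter table (GRCm38.p6), which held 24 of the 39 members and not Hoxa4. Hoxa2 is at chr6:52164832-52165081, Hoxa3 at chr6:52213068-52213317, Hoxa5 at chr6:52204588-52204837 and Hoxa7 at chr6:52218574-52218823, all on the minus strand, and Hoxd8 at chr2:74704365-74704614 on the plus strand. Capitals mark TGATNNAT, a motif bound jointly by Pbx and Hox proteins, and TGACAG, the core motif of Meis, searched on both strands.
Hoxa2 (not called): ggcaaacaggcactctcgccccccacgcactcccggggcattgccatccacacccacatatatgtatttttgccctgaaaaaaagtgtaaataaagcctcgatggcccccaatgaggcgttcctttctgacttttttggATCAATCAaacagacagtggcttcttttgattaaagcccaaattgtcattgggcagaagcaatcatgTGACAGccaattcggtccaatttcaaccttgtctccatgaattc
Hoxa3 (called): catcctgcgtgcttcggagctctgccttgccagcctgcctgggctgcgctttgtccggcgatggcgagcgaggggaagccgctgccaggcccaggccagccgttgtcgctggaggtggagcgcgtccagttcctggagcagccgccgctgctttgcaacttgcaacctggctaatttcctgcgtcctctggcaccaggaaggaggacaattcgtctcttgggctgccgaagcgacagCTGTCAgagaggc
Hoxa5 (called): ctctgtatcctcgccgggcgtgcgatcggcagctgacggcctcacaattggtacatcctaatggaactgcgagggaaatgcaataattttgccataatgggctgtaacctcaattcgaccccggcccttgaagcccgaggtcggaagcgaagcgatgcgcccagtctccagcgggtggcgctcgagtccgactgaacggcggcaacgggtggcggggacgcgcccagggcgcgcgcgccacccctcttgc
Hoxa7 (not called): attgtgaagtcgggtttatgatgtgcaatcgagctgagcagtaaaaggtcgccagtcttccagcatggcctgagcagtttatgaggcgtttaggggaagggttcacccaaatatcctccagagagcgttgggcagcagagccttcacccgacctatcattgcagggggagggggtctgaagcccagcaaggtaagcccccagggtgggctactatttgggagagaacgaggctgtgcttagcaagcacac
Hoxd8 (called): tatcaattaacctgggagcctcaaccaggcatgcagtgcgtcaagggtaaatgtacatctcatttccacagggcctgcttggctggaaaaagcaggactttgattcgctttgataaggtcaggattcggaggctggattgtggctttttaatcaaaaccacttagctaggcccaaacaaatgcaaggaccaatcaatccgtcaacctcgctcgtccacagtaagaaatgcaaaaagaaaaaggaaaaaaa

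In the Hoxa2 window 1 match to each motif was found, in the Hoxa3 window 1 match to TGACAG, read on the opposite strand, and in the Hoxa5, Hoxa7 and Hoxd8 windows 0. Over all 32851 windows listed, 7.68% held TGATNNAT and 15.9% held TGACAG. Of the 26 windows of members, 3 and 2 did. The number of CpG dinucleotides was 18 for Hoxa3, 28 for Hoxa5, 6 for Hoxa2, 7 for Hoxa7 and 6 for Hoxd8. Among uncalled Hox genes whose windows are not printed it ranged widely, with 35 for Hoxa13, 31 for Hoxd13 and 3 for Hoxa9. Members had a median of 12.5 and all windows a median of 6. These matches and counts describe the letters of the windows and are no measure of binding in these cells. The start listed for Hoxa3 lies on the far side of Hoxa6, and which start was in use was not measured.

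In the Hoxd cluster 1 of 8 measured genes was above background. Hoxd8, of the trunk (Entrez gene 15437), read 4.65, 5.13 and 4.78, above the limit on every array. The mean of 4.85 ± 0.25 was 0.80 log2 units above it (adjusted p = 0.00697, limma). Its other probe set read 5.40, 3.28 and 4.74, below the limit on replicate 2, and did not pass (adjusted p = 0.403, limma). Hoxd8 was not called with the limit at the 99th percentile of the receptor genes (margin 0.42, adjusted p = 0.141, limma) or with the median of its probe sets (margin 0.64, adjusted p = 0.0542). Its measured neighbours Hoxd3 and Hoxd9 read 3.62, 3.90 and 2.69, and 1.16, 3.58 and 1.71, below the limit throughout. Hoxd1, Hoxd10, Hoxd11, Hoxd12 and Hoxd13 had means of 1.17, -1.23, 1.05, 0.14 and 3.60 and were below the limit on all arrays.

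The Hoxb and Hoxc clusters gave 0 calls among 9 and 7 measured genes, and 0 at an unadjusted limma p below 0.05 in either. Hoxb1 and Hoxb2, active in the hindbrain, had means of 3.29 and 3.28. Hoxb2 varied most within this pair, at 4.50, 4.19 and 1.16, above the limit on replicates 1 and 2 only. Hoxb6, Hoxb7, Hoxb9 and Hoxb13 had means of -0.090, 2.43, 1.05 and 0.66. In Hoxc, Hoxc6 read 4.54, 3.83 and 4.35 on its brightest of 3 probe sets and was the 1 uncalled Hox gene with a mean above the limit, by 0.19 (adjusted p = 0.359, limma). Hoxc8, the measured paralogue of Hoxd8, read 2.76, 0.42 and 2.73, below the limit on every array. Hoxc9, Hoxc10 and Hoxc13 had means of 2.74, 1.96 and 0.65.

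By paralogue group, the genes of like position in different clusters, calls lay in groups 3, 4, 5 and 8, with 1 gene in each. None of the 6 measured paralogues of Hoxa3, Hoxa4 and Hoxa5 in other clusters was above background or above the limit on any array, and 0 had an unadjusted limma p below 0.05. Hoxb3 read 2.83, 2.65 and 3.84, and Hoxd3 is given above. Hoxb4 read 2.66, 3.85 and 3.33. Hoxc4 read -0.64, 0.20 and 0.63, and so all 3 arrays of each lay below the limit. The partners of Hoxa5 lay there too. Hoxb5 read 0.14, -0.57 and -0.038, and Hoxc5 read -0.67, 3.18 and 1.45. Of groups 1 to 5 together 3 of 13 genes were called, and of groups 6 to 8, 1 of 6. Groups 9 to 13 gave 0 of 14 (0 at an unadjusted limma p below 0.05).

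Probe set by probe set, 6 of 48 for Hox genes and 13 of 15 for TALE cofactors were above background, against 52.2% of the 34871 probe sets tested (limma, adjusted over those probe sets). The 29 Hox genes without a call had no probe set that passed. All 4 called Hox genes were among the 11 with 2 or more probe sets, and 22 Hox genes had 1. Another 3 probe sets annotated to several genes, of Hoxd3 with Hoxd4 or Hoxb7 with Hoxb8, were left out by the rule, and their means were 2.19, 0.0047 and 2.26, below the limit on every array.

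**Figure D2:**
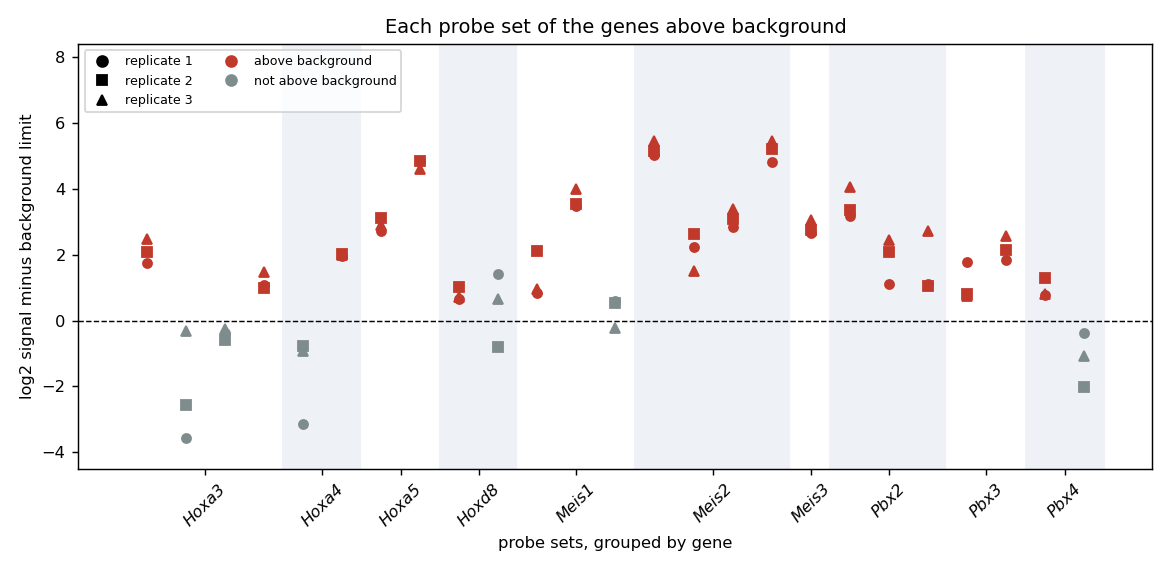
Log2 signal minus the background limit (vertical axis) of every probe set of the 10 members above background, grouped by gene; symbols are the 3 arrays, red probe sets were above background and grey ones were not. Both probe sets of Hoxa5 and all 4 of Meis2 are red, while Hoxa3, Hoxa4, Hoxd8, Meis1 and Pbx4 have probe sets of both kinds.

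The TALE cofactors were above background without exception among the 6 measured. Meis2, a cofactor also found in the forebrain and midbrain (Entrez gene 17536), read 9.02, 9.24 and 9.52, with a mean of 9.26 ± 0.25 (5.21 log2 units above the limit, adjusted p = 4.33e-05, limma). All 4 of its probe sets were above background. Without probe sets that may match several transcripts, of which this is 1, Meis2 lay 2.12 above the limit. Meis1, which keeps Pbx proteins in the nucleus (Entrez gene 17268), read 7.46, 7.65 and 8.07, on average 3.68 above the limit, and passed on 2 of 3 probe sets. With such probe sets left out it lay 1.31 above, and with the median over its probe sets 1.33. Meis3, a hindbrain regulator in the embryo (Entrez gene 17537), read 6.64, 6.85 and 7.14 on its 1 probe set, 2.82 above the limit.

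Among the Pbx genes, which encode the DNA-binding partners of Hox proteins, Pbx2 (Entrez gene 18515) read 7.17, 7.44 and 8.14 and passed on all 3 probe sets, on average 3.53 above the limit and 1.99 with the median over them. Pbx3 (Entrez gene 18516) read 5.83, 6.24 and 6.65, 2.19 above it, and passed on both probe sets. The second Pbx3 probe set ran the other way over the arrays, at 5.76, 4.90 and 4.80, so these data do not settle the order of the arrays for Pbx3. Pbx4, a family member best known from the testis (Entrez gene 80720), read 4.78, 5.39 and 4.88, 0.96 above the limit (adjusted p = 0.00628, limma). It passed on 1 of 2 probe sets, the other at 2.90 ± 0.76. Pbx4 lay at -0.069 from the limit with the median of its probe sets and was not called with the limit at the 99th percentile (margin 0.59, adjusted p = 0.0857, limma).

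Over the arrays, the called members spread by SDs of 0.077 to 0.50 log2 units, where the median over all genes above background was 0.24, and the uncalled Hox genes by 0.27 to 2.70, where the median over all genes not above background was 0.83. Replicate 1 was the lowest array for 6 of 6 TALE cofactors and for 3 of the 4 called Hox genes, and for 69.4% of all genes above background. Replicate 3 was the highest for 5 of 6 TALE cofactors, Pbx4 being the exception, and for 64.3% of all genes above background. After quantile normalization replicate 1 was the lowest for 4 of 6 TALE cofactors, 2 of the 4 called Hox genes and 39.3% of all genes above background. Replicate 3 was then the highest for 5 of 6 TALE cofactors and for 54.3% of all genes above background. Of the 4 called Hox genes, 3 were highest on replicate 2 before quantile normalization, where 26.2% of all genes above background were, and 1 after it. Hoxa5 was also lowest on replicate 3, at 8.66. With 3 arrays of 1 group these orders are a description of the arrays.

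**Figure D3:**
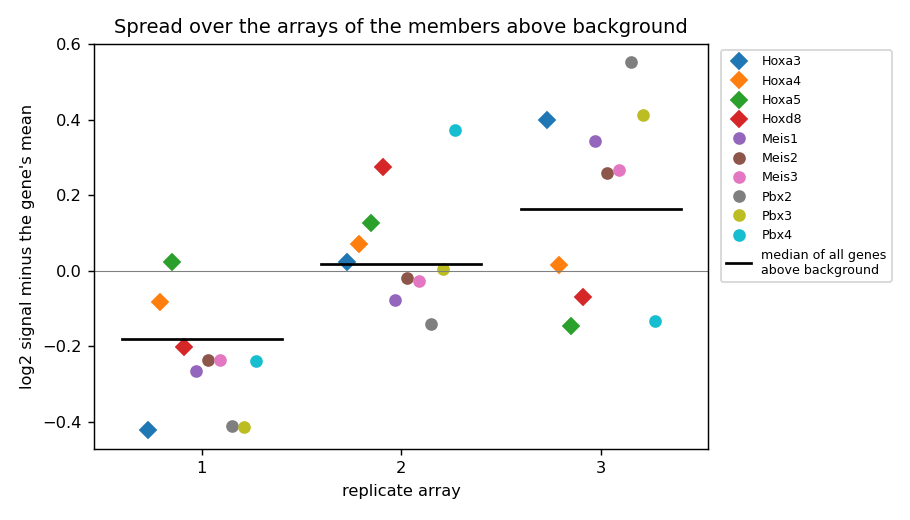
Log2 signal of the 10 members above background minus each gene's mean over the arrays (vertical axis), by replicate; diamonds are Hox genes, circles TALE cofactors, black lines the median of all genes above background (-0.18, 0.016 and 0.16). All 6 TALE cofactors lie below 0 on replicate 1 and 5 of them above 0 on replicate 3, whereas Hoxa5 and Hoxd8 lie below 0 there.

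Inducers and early regulators of Hox genes in the embryo were mostly not above background. Of 13 measured 2 were called (15.4%, where all genes tested gave 58.3%). Cdx1, Cdx2 and Cdx4, caudal factors that activate trunk Hox genes, were at 0.15 ± 0.71, 1.75 ± 1.94 and 2.53 ± 0.28, and Egr2, which activates Hoxa2 and Hoxb2 in the hindbrain, at 3.37 ± 0.85. The called genes were the retinoic acid receptor gene Rarg at 5.90 ± 0.13 and the ligand gene Gdf11, which promotes caudal Hox expression, at 5.53 ± 0.46. Without probe sets that may match several transcripts this count was 1. Chromatin regulators of both signs were above background throughout. These were 11 of 11 trithorax-type activators, among them Kmt2a (MLL1), Kat6a, Men1 and Wdr5 at 7.66 ± 0.13, 9.08 ± 0.26, 8.62 ± 0.25 and 7.96 ± 0.48. Of the Polycomb repressors, which hold Hox clusters silent, 14 of 14 were called, among them Ezh2, Eed, Suz12 and Bmi1 at 7.82 ± 0.25, 8.39 ± 0.19, 7.27 ± 0.41 and 9.59 ± 0.15. With the median over each gene's probe sets the Polycomb count was 9, and Kat6a lay at -0.83 from the limit.

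Other TALE homeobox genes were above background in 8 of 11 cases (72.7%, where all genes tested gave 58.3%). Pknox1 and Pknox2, close relatives of Meis that also pair with Pbx, were at 6.94 ± 0.35 and 7.09 ± 0.29, and the repressors Tgif1 and Tgif2 at 7.43 ± 0.27 and 7.89 ± 0.35. Irx4, Irx6 and Mkx did not pass. All 4 genes for proteins that bind Hox or TALE factors passed: Pbxip1, which binds Pbx proteins and hinders their joint DNA binding with Hox proteins, at 12.08 ± 0.26, Gmnn, which also binds Hox proteins, at 5.56 ± 0.18, and the coactivators Crebbp and Ep300 at 9.37 ± 0.17 and 8.04 ± 0.40.

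Factors of brain regions and the spinal cord that lie outside the Hox clusters were also counted. Of 13 forebrain, midbrain and isthmus factors 8 were above background (61.5%, near the 58.3% of all genes tested). Among them were Otx2, Otx1, Emx2 and Six3 at 7.12 ± 0.52, 5.77 ± 0.38, 6.55 ± 0.48 and 7.88 ± 0.36. Six3 lay at -1.98 from the limit with the median of its probe sets. The count of 8 fell to 6 with the limit at the 99th percentile and with the median over probe sets. It was 9 at the 90th percentile and ran from 6 to 9 when 1 array was left out. Of 12 hindbrain and spinal cord factors 0 were above background, and 1 passed with the limit at the 90th percentile. In this list 0 had an unadjusted limma p below 0.05. The list included Evx1 and Evx2, which lie at the ends of the Hoxa and Hoxd clusters, at 2.15 ± 1.70 and 3.60 ± 0.49. It also held the motor neuron factor Mnx1 at 0.59 ± 2.42. The shares of these lists were not tested against each other. The noncoding RNAs Hoxa11os, Hoxb5os and Hoxd3os1 were at 1.02, 2.38 and 3.06, none above background (0 of 3, and 0 at an unadjusted limma p below 0.05).

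**Figure D4:**
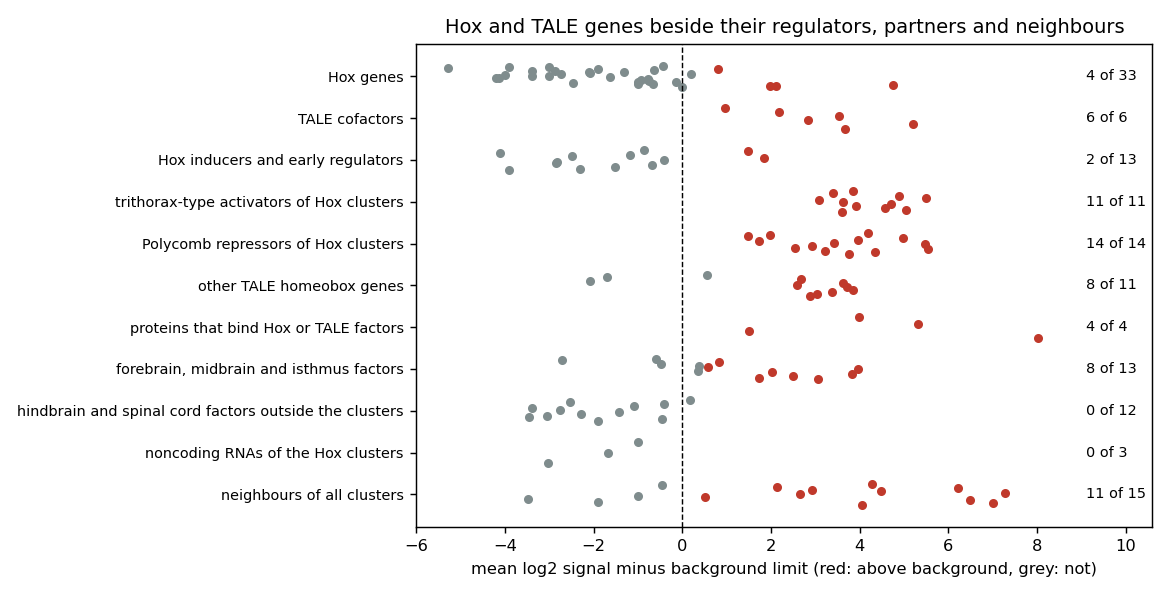
Mean log2 signal minus the background limit (horizontal axis) of each gene in the Hox genes, the TALE cofactors, 8 related gene lists and the neighbours of the clusters; red genes were above background, grey ones were not, and the counts stand at the right. The 4 called Hox genes are the red points of a row that otherwise lies around or below 0, while the rows of Polycomb and trithorax-type genes lie above it.

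Of the nearest protein-coding genes that flank the clusters, 2 on each side, 11 of 15 measured were above background (73.3%), beside 4 of the 33 Hox genes between them and 58.3% of all genes tested, and these differences were not tested. Beside Hoxa, the adaptor gene Skap2 and the sorting nexin gene Snx10 were at 11.05 ± 0.039 and 8.10 ± 0.088, and the mitochondrial enzyme gene Hibadh at 10.55 ± 0.11. Around Hoxc all 4 passed, namely Atp5g2, Calcoco1, Smug1 and Cbx5, though Atp5g2 lay at -0.32 with the median of its probe sets. Beside Hoxd, Lnpk and Mtx2 were at 6.19 ± 0.30 and 8.33 ± 0.19. Around Hoxb, Snx11 was at 6.71 ± 0.45, Calcoco2 and Skap1 did not pass, and Ttll6 passed at 4.57 ± 0.30 with 3 arrays but not without replicate 1, 2 or 3 (margins 0.64, 0.53 and 0.38), each time leaving 1 of 4 called there.

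Cells of other origin that carry Hox transcripts were sought through their markers. The share of all genes tested was 58.3%. Of 10 genes of posterior mesoderm, fibroblasts and limb 1 was above background, Tbx6 at 4.68 ± 0.33. It was not called without replicate 1 or without replicate 2. The levels of this list ran from 1.26 to 4.68, and Col1a1, Col1a2 and Col3a1 were at 2.85 ± 0.50, 3.72 ± 0.75 and 2.59 ± 0.69. Of 7 genes of motor neurons and other neurons, 6 of blood and endothelium and 4 of pluripotent cells 0 were above background, and 0 in each list had an unadjusted limma p below 0.05. Without a call, Tcf15 of the mesoderm list and Spi1 of the blood list were above the limit on 2 arrays each. Their means were 4.17 ± 0.23 and 4.13 ± 0.29. Whether such cells contributed to the Hox signal was not tested. Isl1 and Chat, of motor neurons, were at 0.90 and 1.57, and Ptprc, Cd34 and Pecam1 at 1.56, 0.97 and 1.56. Pou5f1, Nanog and Zfp42 were at 2.69, 2.65 and -0.72.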

How the data were processed

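Biotin-labelled material from the total RNA of 3 samples was hybridised to Affymetrix mouse arrays with 1 colour, per the labels' protocols. The deposited values are linear-scale intensities, 1 for each probe set on each array, made by the authors with GCOS 1.4, per the submitters' processing notes. The sources used here give neither settings nor detection calls, so the limit from receptor genes stood in for them. All 45101 rows were above 0, with medians of 20.02, 23.3 and 19.4 on replicates 1, 2 and 3. The platform annotation named the probe sets (34958 with 1 gene, 932 with several and 9211 unnamed here). Deposited intensities were put on the log2 scale without a pseudocount, and each gene took the probe set with the highest mean log2. Tests used limma 3.58.1 in R 4.3.3 (lmFit and eBayes) and were tested on simulated data with independent noise on each array. Pass criteria were set only well above and well below the limit, so this does not bear on calls near it. Over all genes tested 10570 were called, and 10713 had an unadjusted p below 0.05.

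All members are reported, with values on every array for called genes and their cluster or paralogue neighbours. Of related lists the first 4 measured genes are named, of marker lists the first 3, and all called genes where these were 5 or fewer. Gene neighbours came from the RefSeq gene table. Members and lists were chosen with earlier results of these data known. Alternatives were the 99th and 90th percentile as limit, the median over a gene's probe sets, leaving out probe sets that can bind several transcripts (IDs ending in _s_at, _x_at or _a_at), log2(intensity + 16), quantile normalization, and leaving out each array. The number of arrays limits the precision.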

Additional observations from a re-analysis of the deposited data

How the results depend on the processing

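Under 9 alternatives, 342 of 348 values of the member genes kept their call, and most of these values belong to the 29 uncalled Hox genes. The changes all fell on called genes, namely Hoxa3, Hoxa4, Hoxd8 and Pbx4. There 5 values stayed above the limit without a call, and 1 fell below it. Hoxa5, Meis1, Meis2, Meis3, Pbx2 and Pbx3 were called under every alternative that gave them a value, and Meis3 and Pbx3 have none once probe sets able to bind several transcripts are left out. With the median over each gene's probe sets, 1 Hox gene in place of 4 was called (Hoxa5), the Polycomb count was 9, and Pbx4, Kat6a, Six3 and Atp5g2 fell below the limit, to -0.069, -0.83, -1.98 and -0.32 log2 units. Without those probe sets, 9 member probe sets in place of 19 were called, of fewer tested. The count of inducers and early regulators was then 1 and the count beside Hoxd 1. With the limit at the 99th percentile 3 Hox genes were called, the mesoderm, fibroblast and limb count was 0 and the count beside Hoxb 1, and at the 90th percentile 1 hindbrain and spinal cord gene was called. Leaving out 1 array gave 4 Hox and 6 TALE genes each time, 16 to 19 member probe sets, 45 to 48 genes of the related lists, 0 to 1 mesoderm, fibroblast and limb genes and 1 beside Hoxb. Beyond what the choice of probe sets and limit fixes by construction, the cause was not tested. No paired analysis was possible because the series has 1 group. A gene near the limit can go unseen, so an uncalled Hox gene is not shown to be silent. Equally, a call just above the limit does not establish that the gene is expressed.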
